A study of Rattus norvegicus with 10 samples.

Results

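Cells read corticosteroid hormones through a pair of related nuclear receptors. Before hormone binds, each receptor is held in the cytoplasm by the chaperone HSP90 and a set of partner proteins. The messages of these receptors and their closest partners were followed in the prefrontal cortex of adult rats, for 8 named genes. They were the receptors Nr3c1 and Nr3c2, the immunophilins Fkbp5 and Fkbp4, the HSP90 genes Hsp90aa1 and Hsp90ab1, the p23 gene Ptges3 and the enzyme gene Hsd11b1. Every row of the processed table that carried one of these symbols was taken, which gave 8 rows for 7 of the 8 genes, out of 16041 genes in the table. Nr3c1 had 2 rows, and Hsp90aa1 was not analysed here. All 8 rows passed the filter on low values.

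The 10 libraries came from the prefrontal cortex of male Sprague-Dawley rats, with 5 from rats exposed to early life stress (ELS) and 5 from control rats. The ELS rats had been raised under limited nesting, in which a dam and her litter have too little material to build a nest, from postnatal day 2 to day 9. Tissue was collected from both groups at postnatal day 91, so the comparison concerns adult levels long after the stress. The labels do not say whether the rats of a group came from different litters. The p-values here set the group difference against the scatter of individual tissue samples within groups. If some rats were littermates, these p-values may be too small. The labels name no allele and no drug in either group.

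The glucocorticoid receptor, encoded by Nr3c1, has a lower affinity for corticosterone, the main glucocorticoid of the rat, and is filled mostly at the daily peak and under stress. The mineralocorticoid receptor, encoded by Nr3c2, has a high affinity and is occupied at low hormone levels. In the brain it is best known from the hippocampus, where it is abundant. The immunophilin FKBP51, the product of Fkbp5, sits on the HSP90 complex and lowers the receptor's affinity for hormone. Its gene is itself induced by glucocorticoids, which closes a short feedback loop. FKBP52, the product of Fkbp4, takes its place and links the complex to the dynein motor that carries it to the nucleus. The p23 protein, encoded by Ptges3, stabilises the mature complex. The enzyme 11-beta-hydroxysteroid dehydrogenase type 1, encoded by Hsd11b1, regenerates active corticosterone from its inert 11-keto form inside cells.

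Library totals ran from 18838898 to 22311136 reads. Levels are in RPKM, which divides the reads by the length of the gene and by the total of the library, so that they can be set side by side between genes. Control replicate 4 stood apart from the other 9 libraries. It held the highest value of all libraries in 23.8% of the 14642 genes tested and the lowest in 23.8%, while each other library was highest in 5.00% to 13.8%. Its markers did not match the rest: a list of hippocampal neuron genes, chosen after values had been seen, summed to 223.8 RPKM there, against 103.7 to 128.6 RPKM in the ELS libraries and 95.6 to 107.9 RPKM in the other controls. Prox1 was at 13.5 RPKM in control replicate 4 and at 0.839 to 1.30 RPKM in the other 9, and C1ql2 at 48.1 RPKM against 0.244 to 1.33 RPKM. A list of neocortical layer genes, chosen in the same way, summed to 124.6 RPKM in control replicate 4. It summed to 260.0 to 285.0 RPKM in ELS and 230.1 to 255.0 RPKM in the other controls. Mef2c, a member of that list, was at 14.2 RPKM in control replicate 4, against 83.1 to 100.7 RPKM in the other 9. The lists were not uniform, and 7 of the 12 listed hippocampal genes were measured. Control replicate 4 was above all other 9 libraries in 6 of the 7 hippocampal rows and below them in 1, Calb1. It was below them in 7 of the 13 neocortical rows and above them in 2, Lhx2 and Rasgrf2. Each member is therefore given with and without this library.

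**Figure D1:**
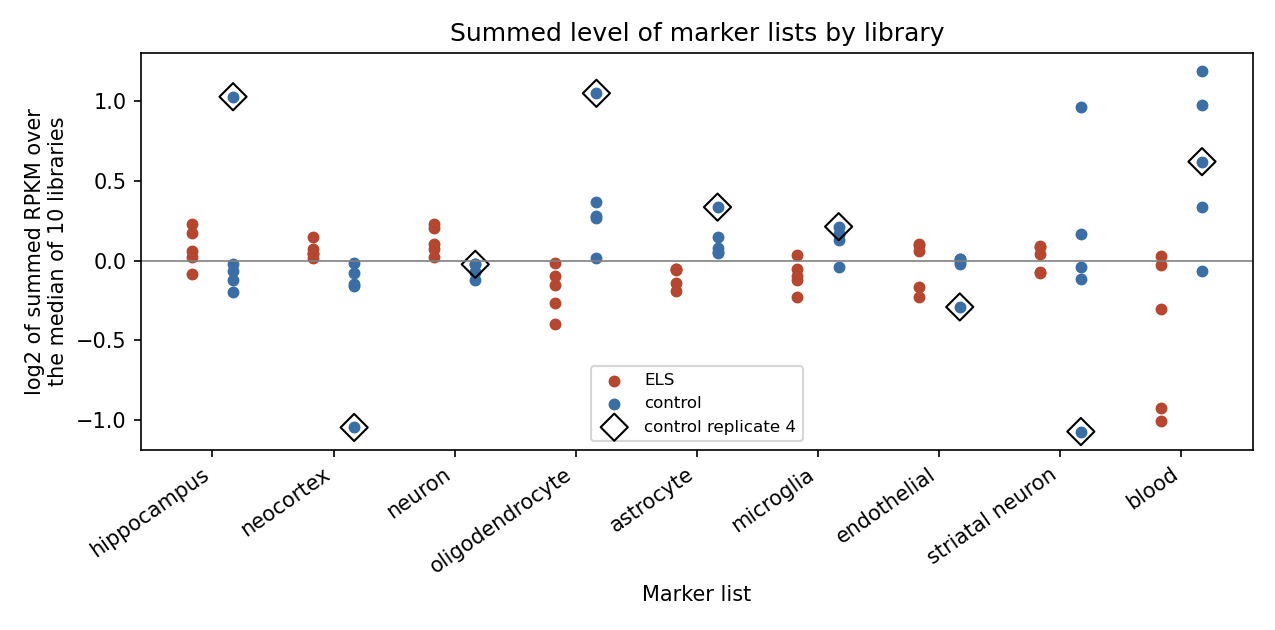
Summed RPKM of 9 marker lists in each library, as log2 over the median of the 10 libraries (vertical axis), with ELS left of control in each list and control replicate 4 ringed by a diamond. Control replicate 4 is the highest point of the hippocampus, oligodendrocyte, astrocyte and microglia lists and the lowest of the neocortex, striatal and endothelial lists. The ELS and control points do not overlap for the neocortex, neuron, oligodendrocyte and astrocyte lists.

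The promoters of the chaperone genes and of Fkbp5 are shown first. The messages of the chaperone genes shared 3 of their 4 highest libraries, and Fkbp5 is the member known as a glucocorticoid-induced gene. Each sequence is the RefSeq promoter of assembly GRCr8, 250 bases before to 50 bases after the annotated start, read 5' to 3' on the strand of the gene. Of the 8 members, 5 matched an entry, and the windows of Nr3c1 are not printed. Capitals mark the GC box GGGCGG on either strand, adjoining copies merged, and in Fkbp4 also the heat shock element GAANNTTC, found as GAAAGTTC.
Fkbp5 (chr20:6543506-6543805, minus strand): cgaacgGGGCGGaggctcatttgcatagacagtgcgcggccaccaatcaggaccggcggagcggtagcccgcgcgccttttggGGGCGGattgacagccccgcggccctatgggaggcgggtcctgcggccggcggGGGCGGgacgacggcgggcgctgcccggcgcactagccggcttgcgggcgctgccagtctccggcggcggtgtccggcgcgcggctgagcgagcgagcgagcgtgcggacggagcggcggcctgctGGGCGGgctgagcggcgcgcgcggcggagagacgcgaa
Fkbp4 (chr4:163397869-163398168, minus strand): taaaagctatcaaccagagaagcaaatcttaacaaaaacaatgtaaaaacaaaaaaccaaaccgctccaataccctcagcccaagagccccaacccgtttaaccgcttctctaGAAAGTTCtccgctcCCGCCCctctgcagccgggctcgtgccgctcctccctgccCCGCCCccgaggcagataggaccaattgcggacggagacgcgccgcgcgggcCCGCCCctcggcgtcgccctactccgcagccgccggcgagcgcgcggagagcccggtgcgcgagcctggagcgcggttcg
Hsp90ab1 (chr9:22930173-22930472, plus strand): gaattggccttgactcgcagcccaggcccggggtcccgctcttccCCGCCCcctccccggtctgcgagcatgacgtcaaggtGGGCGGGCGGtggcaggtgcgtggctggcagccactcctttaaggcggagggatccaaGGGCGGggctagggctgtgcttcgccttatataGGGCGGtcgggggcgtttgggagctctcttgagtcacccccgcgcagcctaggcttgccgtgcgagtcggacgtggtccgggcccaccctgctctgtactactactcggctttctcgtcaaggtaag
Ptges3 (chr7:1075059-1075358, plus strand): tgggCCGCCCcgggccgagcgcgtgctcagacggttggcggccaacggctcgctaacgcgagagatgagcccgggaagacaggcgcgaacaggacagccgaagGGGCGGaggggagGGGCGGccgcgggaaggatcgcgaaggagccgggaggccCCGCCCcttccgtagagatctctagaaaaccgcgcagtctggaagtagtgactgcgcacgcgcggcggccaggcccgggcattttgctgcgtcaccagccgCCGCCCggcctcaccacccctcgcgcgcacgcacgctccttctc
The GC box occurred 4 times in the Fkbp5 window, 3 times in that of Fkbp4 and 5 times each in those of Hsp90ab1 and Ptges3, with copies that share bases counted apart. Of all 33469 RefSeq rat promoters of this length, 33.1% held at least 1 GC box. These windows were rich in G and C, at 77.0% in Fkbp5, 63.3% in Fkbp4, 66.7% in Hsp90ab1 and 71.7% in Ptges3, against a median of 51.7% over all promoters. The heat shock element GAANNTTC, which was held by 8.59% of all promoters, was found once in the Fkbp4 window, at position -137 from the start. The palindromic glucocorticoid response element, GNACA and TGTNC with any NNN between them, held by 0.439% of all promoters, and the receptor half-site AGAACA, held by 20.7%, were searched on both strands and were not in any of the matched member windows. A match or its absence describes these letters in this window and says nothing of binding.

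The members' levels spanned a wide range. Hsp90ab1 averaged 403.9 RPKM over the 10 libraries and was 8.92 times the next member, Ptges3, at 45.3 RPKM. Fkbp4 followed at 35.3 RPKM and lay below Ptges3 in all 10 libraries. Nr3c1 averaged 14.2 RPKM in its row of 5078 bases and was above Fkbp5, at 10.4 RPKM, in 9 of 10 libraries. Fkbp5 and the Nr3c1 row of 1239 bases, at 10.1 RPKM, could not be ordered, as Fkbp5 was the higher in 5 of 10. Nr3c2 at 7.81 RPKM and Hsd11b1 at 6.18 RPKM could not be ordered either, since Nr3c2 was the higher in 5 of 10. The HSP90 gene was thus far above both receptors in every library, and Fkbp4 above its relative Fkbp5.

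**Figure D2:**
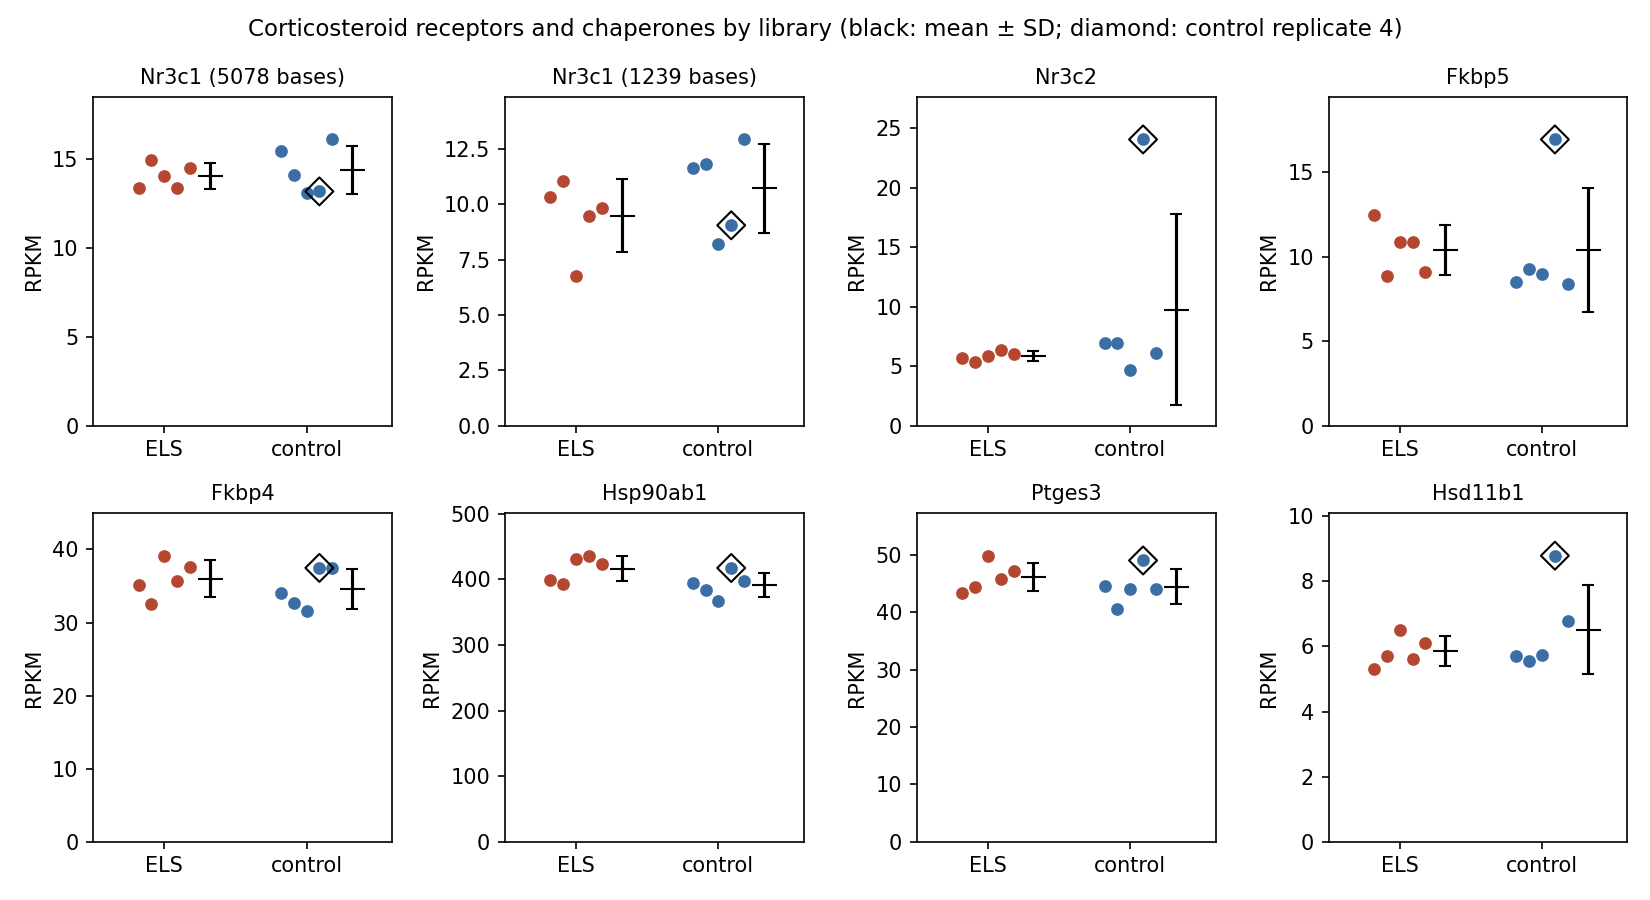
RPKM (vertical axes from 0) of the 8 member rows in the 5 ELS and 5 control libraries, each point 1 library, with black bars for mean ± SD and a diamond around control replicate 4. The groups overlap in every panel, and control replicate 4 is the highest point for Nr3c2, Fkbp5 and Hsd11b1.

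No member passed an adjusted p of 0.05 between ELS and control libraries, by limma on log2(RPKM + 0.1) with Benjamini-Hochberg adjustment over all 14642 genes tested. The count was 0 of 8 rows, beside 0% of all genes, and 0 genes also passed by limma-voom on the reads recovered from the table. At an unadjusted p under 0.05 the members' count was again 0 of 8, where 20.4% of all genes lay below it. Where settings that weigh or drop libraries let genes pass, the members still had 0 of 8 at an adjusted p under 0.05: the share of all genes was 5.91% with sample quality weights and 7.44% without ELS replicate 2 and control replicate 4. At an unadjusted p under 0.05 the members' counts were 1 and 2 of 8 there, against 26.9% and 26.1% of all genes. In no row were the ELS and control libraries apart from each other, against 5.68% of genes whose groups did not overlap. Fold changes below are ELS over control on the log2(RPKM + 0.1) scale, with their standard error (SE).

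Nr3c1 had close means in both groups. In its row of 5078 bases (ENSRNOG00000014096) the ELS libraries read 13.3, 14.9, 14.1, 13.3 and 14.5 RPKM, and the control libraries 15.5, 14.1, 13.1, 13.2 and 16.1 RPKM. All 5 ELS libraries lay inside the control range, and both the highest and the lowest value were controls. The means were 14.0 ± 0.707 RPKM in ELS and 14.4 ± 1.35 RPKM in control (SD, n = 5 each), a log2 fold change of -0.03 ± 0.07 (limma, adjusted p = 0.821). The 95% interval of the difference ran from -11.7% to 8.51%, on 1317 to 1607 reads a library. Without control replicate 4 the log2 fold change was -0.06 ± 0.07 (limma, adjusted p = 0.628).

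The second Nr3c1 row, of 1239 bases (ENSRNOG00000048800), was more variable. It read 10.3, 11.1, 6.75, 9.46 and 9.85 RPKM in the ELS libraries and 11.7, 11.8, 8.18, 9.04 and 12.9 RPKM in the controls. ELS replicate 3 was lowest, 3 controls were above every ELS library, and the groups overlapped through control replicates 3 and 4. The means were 9.49 ± 1.64 RPKM in ELS and 10.7 ± 2.01 RPKM in control (SD, n = 5 each), a log2 fold change of -0.17 ± 0.16 (limma, adjusted p = 0.559). This row rested on 168 to 322 reads a library, and without control replicate 4 its log2 fold change was -0.23 ± 0.16 (limma, adjusted p = 0.447). Without ELS replicate 3 it was -0.06 (limma, adjusted p = 0.855). Set over the longer row, the shorter one ran from 0.480 in ELS replicate 3 to 0.838 in control replicate 2. What part of the receptor gene each row covers was not given in the files used, and reads could be shared between rows that overlap.

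Nr3c2 gave the widest spread of all members, and that spread came from 1 library. The ELS libraries read 5.66, 5.35, 5.86, 6.39 and 6.02 RPKM, and the control libraries 6.99, 6.95, 4.66, 24.1 and 6.14 RPKM. The ELS libraries sat close together inside the range of the controls, and control replicate 4 stood alone at 4.01 times the mean of the other 9. With it, the means were 5.86 ± 0.390 RPKM in ELS and 9.76 ± 8.06 RPKM in control (SD, n = 5 each), a log2 fold change of -0.45 ± 0.36 (limma, adjusted p = 0.496). Without it the 4 remaining controls averaged 6.19 ± 1.09 RPKM and the log2 fold change was -0.06 ± 0.11 (limma, adjusted p = 0.789), with a 95% interval of -19.7% to 14.2%. The same library held the high hippocampal and low neocortical marker sums given above. Their part in its Nr3c2 level was not tested.

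Fkbp5, the feedback immunophilin, depended on the same library. It read 12.4, 8.82, 10.9, 10.9 and 9.11 RPKM in the ELS libraries and 8.49, 9.25, 8.96, 16.9 and 8.36 RPKM in the controls. Apart from control replicate 4, the controls fell in a narrow band, and ELS replicates 1, 3 and 4 lay above that band while ELS replicates 2 and 5 lay inside it. Over all libraries the means were 10.4 ± 1.48 RPKM in ELS and 10.4 ± 3.67 RPKM in control (SD, n = 5 each), a log2 fold change of 0.05 ± 0.19 (limma, adjusted p = 0.906). Without control replicate 4 the controls averaged 8.77 ± 0.415 RPKM, and ELS was higher by 0.24 ± 0.10 on the log2 scale, at an unadjusted p of 0.0326 and an adjusted p of 0.195 (limma). Fkbp5 therefore did not pass the adjusted threshold either way.

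Hsp90ab1, the constitutive cytosolic HSP90, varied least within the groups, with coefficients of variation of 4.61% in ELS and 4.73% in control. The ELS libraries read 398.4, 393.5, 430.2, 435.9 and 423.4 RPKM, and the controls 393.6, 383.6, 366.7, 417.2 and 396.6 RPKM. The highest 3 values were ELS libraries and the lowest 2 were controls, with ELS replicates 1 and 2 among the controls. The means were 416.3 ± 19.2 RPKM in ELS and 391.5 ± 18.5 RPKM in control (SD, n = 5 each), a log2 fold change of 0.09 ± 0.05 (limma, adjusted p = 0.297). With control replicate 4 set aside the log2 fold change was 0.11 ± 0.04, at an unadjusted p of 0.0213 and an adjusted p of 0.167 (limma). With 19355 to 24769 reads a library, the interval over all 10 libraries was narrow, from -0.845% to 14.0%.

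Without control replicate 4, then, Fkbp5 and Hsp90ab1 were the 2 of 8 member rows with an unadjusted p under 0.05, both higher in ELS. Over all 14556 genes tested in those 9 libraries the share at that level was 21.8%, and 11.1% were also higher in ELS, so a count of 2 in 8 is near the background. No gene passed the adjusted threshold there (0%), and in no member row were the groups apart, against 7.82% of genes. Neocortical marker sums, given above, and neuron marker sums, which ran from 2707 to 3133 RPKM in ELS and from 2456 to 2631 RPKM in control, differed in the same direction as these genes. Of the 9 neuron markers, 9 had a positive log2 fold change over all 10 libraries and 8 without control replicate 4. Oligodendrocyte marker sums ran the other way, at 858.9 to 1122 RPKM in ELS and 1143 to 2344 RPKM in control, with 9 of 9 log2 fold changes negative. Astrocyte sums were 807.4 to 891.1 RPKM in ELS and 954.2 to 1164 RPKM in control, with 8 of 8 negative. None of the neuron, oligodendrocyte or astrocyte markers was at 0 in every library. The part of these cell type markers in the members' values was not tested, and in bulk tissue fewer cells of a type and less RNA per cell cannot be told apart.

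Of the co-chaperones proper, Fkbp4 read 35.1, 32.5, 39.2, 35.6 and 37.6 RPKM in the ELS libraries and 34.1, 32.7, 31.5, 37.5 and 37.5 RPKM in the controls. The groups overlapped, with ELS replicate 3 highest and control replicate 3 lowest. The means were 36.0 ± 2.52 RPKM in ELS and 34.7 ± 2.74 RPKM in control (SD, n = 5 each), a log2 fold change of 0.06 ± 0.07 (limma, adjusted p = 0.661). The 95% interval was -6.03% to 14.9%. Without control replicate 4 the log2 fold change was 0.08 ± 0.06 (limma, adjusted p = 0.470).

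Ptges3 read 43.4, 44.4, 49.8, 45.8 and 47.1 RPKM in the ELS libraries and 44.5, 40.5, 44.1, 49.0 and 44.0 RPKM in the controls. ELS replicate 3 and control replicate 4 were the high libraries and control replicate 2 the low one. The means were 46.1 ± 2.51 RPKM in ELS and 44.4 ± 3.04 RPKM in control (SD, n = 5 each), a log2 fold change of 0.06 ± 0.06 (limma, adjusted p = 0.603). The 95% interval was -4.64% to 13.2%, on 1389 to 1814 reads a library. Leaving out control replicate 4 gave a log2 fold change of 0.09 ± 0.05 (limma, adjusted p = 0.3003). ELS replicate 3, ELS replicate 5 and control replicate 4 were among the 4 highest libraries for each of Hsp90ab1, Fkbp4 and Ptges3. The only control among these was control replicate 4, which was highest in 23.8% of all genes. How often other sets of genes share their high libraries was not tested.

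Hsd11b1, the corticosterone-regenerating enzyme, read 5.31, 5.72, 6.50, 5.62 and 6.12 RPKM in the ELS libraries and 5.70, 5.55, 5.74, 8.79 and 6.79 RPKM in the controls. The ELS libraries lay below control replicates 4 and 5 and overlapped the other controls. The means were 5.85 ± 0.464 RPKM in ELS and 6.51 ± 1.37 RPKM in control (SD, n = 5 each), a log2 fold change of -0.13 ± 0.12 (limma, adjusted p = 0.566). Control replicate 4 was 1.49 times the mean of the other 9, and without it the log2 fold change was -0.02 ± 0.08 (limma, adjusted p = 0.909).

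**Figure D3:**
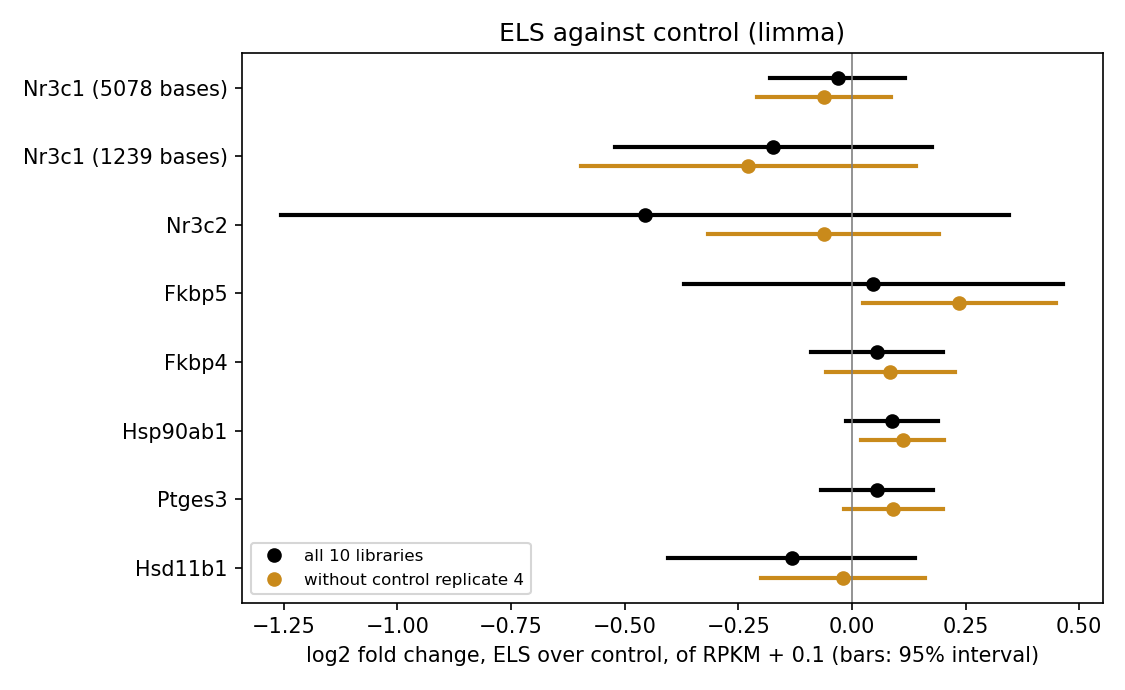
Log2 fold change of each member row, ELS over control, of RPKM + 0.1 (horizontal axis), with 95% intervals as bars, in black for all 10 libraries and in ochre without control replicate 4. All intervals over 10 libraries include 0, and that of Nr3c2 is the widest; without control replicate 4 those of Fkbp5 and Hsp90ab1 lie above 0 before adjustment.

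Control replicate 4 was the highest library for 3 of the 8 rows, Nr3c2, Fkbp5 and Hsd11b1. Across all genes it was highest in 23.8%, and in 6.95% it was highest and also over 1.5 times the median of the others, as it was for those 3 rows. For the other 5 rows it stood at 0.885 to 1.09 times the mean of the other 9. The receptor and enzyme messages thus split within this library: Nr3c2 was far up while both Nr3c1 rows were a little below the mean of the other 9. Among the remaining libraries, control replicate 3 was lowest for 4 rows (the longer Nr3c1 row, Nr3c2, Fkbp4 and Hsp90ab1), and control replicate 5 was highest for both Nr3c1 rows and lowest for Fkbp5.

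**Figure D4:**
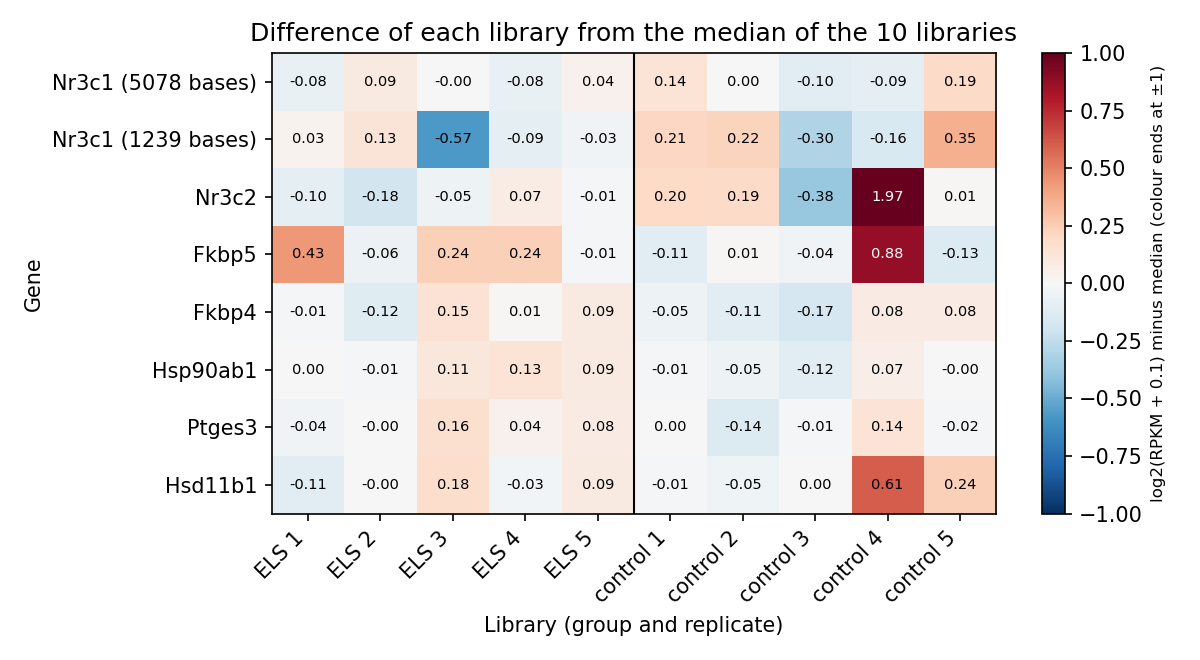
Difference of each library (columns, ELS at the left and control at the right) from the median of the 10 libraries, as log2(RPKM + 0.1), for the 8 member rows; colours end at 1 and -1 and the numbers give the value. The largest entry is Nr3c2 in control replicate 4 at 1.97, followed by Fkbp5 in the same library at 0.88.

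Ratios within a library are free of that library's scaling. Nr3c2 over the longer Nr3c1 row, a measure of the balance between the high- and low-affinity receptor, was 0.425, 0.358, 0.417, 0.480 and 0.416 in the ELS libraries and 0.453, 0.494, 0.356, 1.83 and 0.382 in the controls. Apart from control replicate 4 the groups covered the same range. On the log2 scale the difference, ELS minus control, was -0.42 (exact permutation test, two-sided, p = 0.508, adjusted p = 0.976 over 3 ratios), against -0.00101 in the 9 libraries without control replicate 4 (exact permutation p = 0.984). Nr3c2 over the shorter Nr3c1 row ran from 0.484 to 0.869 in ELS and from 0.475 to 2.66 in control, with a log2 difference of -0.28 (exact permutation p = 0.794, adjusted p = 0.976). Without control replicate 4 that difference was 0.17 (exact permutation p = 0.421, adjusted p = 0.631), so its sign rested on 1 library.

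Fkbp5 over Fkbp4 sets the immunophilin that lowers the receptor's affinity for hormone against its motor-linked relative. This ratio was 0.354, 0.271, 0.277, 0.305 and 0.243 in the ELS libraries and 0.249, 0.283, 0.284, 0.452 and 0.223 in the controls. Control replicate 4 was again the highest and ELS replicate 1 came next. The log2 difference, ELS minus control, was -0.00805 (exact permutation test, two-sided, p = 0.976, adjusted p = 0.976), against 0.15 in the 9 libraries without control replicate 4 (exact permutation p = 0.278, adjusted p = 0.631).

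**Figure D5:**
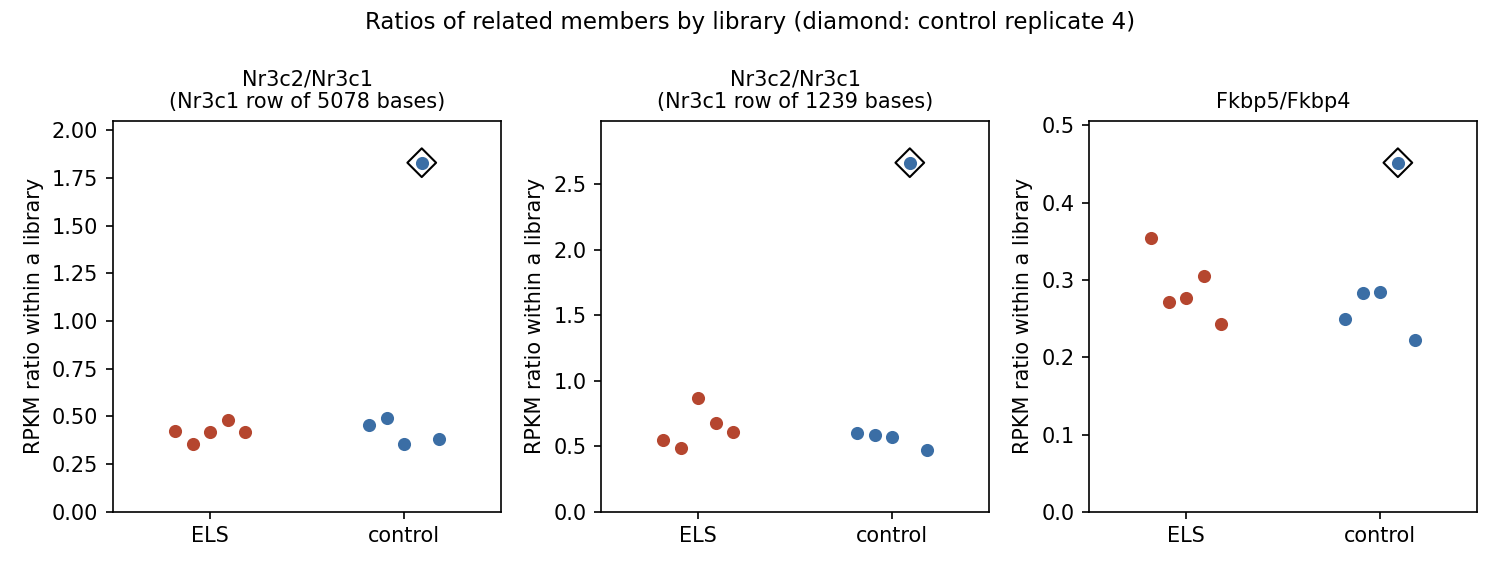
RPKM ratio of related members within each library (vertical axes from 0), ELS left of control, each point 1 library and control replicate 4 ringed by a diamond. Control replicate 4 is the highest point of all 3 ratios, at 1.83, 2.66 and 0.452, and the other controls overlap the ELS libraries.

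Around the members, lists of genes of the same pathway also gave 0 calls at an adjusted p of 0.05 in every list. Over all 14642 genes the median log2 fold change was 0.00371 and 50.7% were positive, that is, higher in ELS. Counts by direction below go by the sign of this log2 fold change. A list of HSP90 machinery held other HSP90 and HSP70 genes and Hsf1 besides co-chaperones. Of its 21 tested rows, 18 were higher in ELS and 3 lower. Their median log2 fold change was 0.08, or 0.09 without control replicate 4. Trap1, the mitochondrial HSP90, averaged 22.2 ± 0.650 RPKM in ELS and 19.6 ± 1.01 RPKM in control (SD, n = 5 each), a log2 fold change of 0.18 (limma, adjusted p = 0.133), and all 5 ELS libraries were above the controls. Cdc37, which brings kinases to HSP90, averaged 40.8 ± 0.756 RPKM in ELS and 37.6 ± 1.05 RPKM in control, a log2 fold change of 0.12 (limma, adjusted p = 0.135). Bag1, a nucleotide exchange factor of HSP70, and Ttc4 had the lowest p of the list's genes with a negative log2 fold change, at -0.11 and -0.03 (limma, adjusted p = 0.531 and 0.815). Bag1 read 16.5 RPKM in control replicate 4, and without that library its log2 fold change was -0.03 (limma, adjusted p = 0.835).

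Genes for nuclear import, motor transport and turnover of the receptors showed 16 of 20 higher in ELS and 4 lower, at a median log2 fold change of 0.08. This list shares Tubb3 with the neuron markers, whose sums were also higher in ELS. Dctn1, the large subunit of the dynein cofactor dynactin, averaged 113.2 ± 4.80 RPKM in ELS and 103.1 ± 1.85 RPKM in control (SD, n = 5 each), a log2 fold change of 0.13 (limma, adjusted p = 0.133). Over 20 other settings its adjusted p by limma ran from 0.02315 to 0.293 and was under 0.05 in 3. Ywhaz, a 14-3-3 protein that binds phosphorylated partners, had a log2 fold change of 0.18 (limma, adjusted p = 0.135). Dync1h1, the dynein heavy chain, had one of -0.26 and Mdm2, a ubiquitin ligase, one of -0.04 (limma, adjusted p = 0.265 and 0.764).

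Coactivators and corepressors were divided, with 12 of 20 higher and 8 lower in ELS and a median of 0.02. Smarca2, an ATPase of the SWI/SNF chromatin remodeller, averaged 32.8 ± 1.96 RPKM in ELS and 25.9 ± 3.83 RPKM in control (SD, n = 5 each), a log2 fold change of 0.35 (limma, adjusted p = 0.133). Arid1a, another subunit, had 0.07 (limma, adjusted p = 0.374). Ncoa2, a p160 coactivator, had -0.37, and Nrip1, a corepressor, had -0.23 (limma, adjusted p = 0.272 and 0.273).

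Known glucocorticoid-induced genes, Fkbp5 among them, gave 6 of 20 higher in ELS and 14 lower, at a median log2 fold change of -0.09. This list shares Gjb6 with the astrocyte markers, whose sums were also lower in ELS. Zbtb16, a zinc finger repressor, averaged 13.1 ± 2.79 RPKM in ELS and 9.66 ± 2.91 RPKM in control (SD, n = 5 each). Its log2 fold change was 0.45 (limma, adjusted p = 0.242), and it read 14.8 RPKM in control replicate 4. Without that library its log2 fold change was 0.61 (limma, adjusted p = 0.101). Over 20 other settings its adjusted p by limma ran from 0.00954 to 0.402 and was under 0.05 in 2. Klf9, a transcription factor induced early by glucocorticoids, had a log2 fold change of 0.15 (limma, adjusted p = 0.256). Cebpd, a leucine zipper factor, averaged 0.997 ± 0.255 RPKM in ELS and 2.71 ± 1.81 RPKM in control. Its log2 fold change was -1.20 (limma, adjusted p = 0.133), and it read 5.82 RPKM in control replicate 4. Without that library its log2 fold change was -0.88 (limma, adjusted p = 0.0953). Its groups did not overlap, as in 5.68% of all genes, with ELS up to 1.26 RPKM and controls from 1.47 RPKM. Over 19 other settings its adjusted p by limma ran from 0.0339 to 0.296 and was under 0.05 in 2. Sult1a1, a sulfotransferase, had -0.26 (limma, adjusted p = 0.197).

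Of 15 genes of local corticosteroid supply and transport, 9 were tested, and 3 were higher and 6 lower in ELS, at a median of -0.07. Cyp11b2, the aldosterone synthase, averaged 1.95 ± 0.196 RPKM in ELS and 1.25 ± 0.672 RPKM in control (SD, n = 5 each), with 0.0549 RPKM in control replicate 4, and its log2 fold change of 0.99 (limma, adjusted p = 0.378) became 0.31 without that library (adjusted p = 0.14). Por, which passes electrons to cytochromes P450, had 0.07 (limma, adjusted p = 0.462). Cyp7b1, an oxysterol and neurosteroid hydroxylase, averaged 4.25 ± 0.893 RPKM in ELS and 7.46 ± 2.84 RPKM in control. Its log2 fold change was -0.76 (limma, adjusted p = 0.133), and it read 12.5 RPKM in control replicate 4. Without that library its log2 fold change was -0.56 (limma, adjusted p = 0.0917). Over 20 other settings its adjusted p by limma ran from 0.013 to 0.295 and was under 0.05 in 2. Star, which moves cholesterol into mitochondria, had a log2 fold change of -0.67 at well under 1 RPKM (limma, adjusted p = 0.184).

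Among 12 tested heat shock genes, 9 were higher and 3 lower in ELS, at a median log2 fold change of 0.03. They include Fkbp4 and share Hsph1 and Dnajb1 with the HSP90 machinery list. Dnajb1, an HSP40, had 0.23 and Dnajb4 had 0.10, while Hspb1, a small heat shock protein, had -0.28 and Hspe1, the mitochondrial HSP10, had -0.06 (limma, adjusted p = 0.166, 0.314, 0.221 and 0.503). Of the related steroid receptors, the progesterone receptor gene Pgr had a log2 fold change of 0.18 (limma, adjusted p = 0.699).

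For each member the genes with the most similar pattern were found by Pearson's r of log2(RPKM + 0.1) over the 10 libraries, among 8801 tested genes with a mean of at least 5 RPKM. These r values are a description over libraries that differ in depth and in their marker sums, and no test was made. The longer Nr3c1 row was most like Carmil1 (r = 0.885) and Fcho2 (0.876), and the shorter one like Arfgef1 (0.988) and Gsk3b (0.953). Nr3c2 was most like Ahcyl2 (0.984) and Kit (0.983), and Kit read 28.8 RPKM in control replicate 4 against a mean of 6.57 RPKM in ELS. Fkbp5 was most like Mkl1 (0.973) and Fyn (0.957), and Hsd11b1 like Fam213a (0.971) and Agpat4 (0.969). Mkl1 read 16.9 RPKM in control replicate 4 against a mean of 11.6 RPKM in ELS. Hsp90ab1 was most like Pim2 (0.977) and Actr2 (0.966), Fkbp4 like Zdhhc9 (0.927) and Vamp1 (0.927), and Ptges3 like Tmed9 (0.946) and Tceal3 (0.928). Without control replicate 4, a view added after the values were seen, the leading gene stayed Arfgef1 (0.988) for the shorter Nr3c1 row. It became Cct2 (0.990), a subunit of the cytosolic chaperonin, for Hsp90ab1, Cr1l (0.939) for Nr3c2 and Tmem120a (0.921) for Hsd11b1. For Fkbp5 it became Gpatch8 (0.976), with Ppp5c (0.971), a phosphatase that is itself an HSP90 co-chaperone, second.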

How the data were processed

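Stranded poly(A) libraries of rat prefrontal cortex were made with an Illumina TruSeq kit, per the labels' protocols. STAR, featureCounts and rn6 appear in the submitters' processing notes. Their versions, the strand setting and the annotation release were not given in the sources used here. In 1 table the authors deposited values of 16041 genes in an RPKM-type unit for the 10 libraries, with 0 columns of other samples, and RPKM is written throughout, since whether fragments or reads were counted is not stated. Values were whole multiples of 1 read for 100% of the 16015 genes above 0 (tolerance 0.002 reads), which gave back reads, gene lengths and library totals of 18838898 to 22311136 reads, of which 71.1% to 73.7% fell in listed genes.

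Members, lists and tests were chosen with earlier results of these data known. Genes that reached 0.5 RPKM in no fewer than 5 libraries were tested with limma 3.58.1 in R 4.3.3 (trend, robust, two-sided) on log2(RPKM + 0.1), with Benjamini-Hochberg adjustment over 14642 genes and a threshold of 0.05. The pseudocount understates the change of low genes. The procedure was tested on simulated data. Members' ratios were compared by exact permutation of the group labels, two-sided. A planned ratio of Hsp90aa1 to Hsp90ab1 was not run, so the adjustment covers Nr3c2 over each Nr3c1 row and Fkbp5 over Fkbp4. Genes named were every member row, the 2 genes of lowest p per direction in each list, and the 2 genes most like each member. Others, such as Prox1 and C1ql2, were chosen after their values were seen. Some results for genes under this rule are not reported here. The alternatives were pseudocounts of 1 and 0.01, other filters, median-of-ratios and upper-quartile scaling, limma-voom on the recovered reads, sample quality weights, a replicate block, and leaving libraries out. Promoters are from RefSeq (GRCr8), a different build from that of the table, whose own gene coordinates were not used here. Reads of overlapping or antisense genes could not be separated.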

Additional observations from a re-analysis of the deposited data

Results flagged for a closer look

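Dixon's test flagged 5 of the 22 groups of 5 values examined, where chance gives about 1 group in 20. All 5 were control groups in which control replicate 4 lay far from the other 4 controls. The groups of ELS values do not hold this library, so its own rate is over fewer than 22 groups. Nr3c2 read 24.07 RPKM in this library and 4.656 to 6.992 RPKM in the other controls, and Fkbp5 read 16.93 RPKM against 8.358 to 9.254 RPKM. The ratio of Nr3c2 to the longer Nr3c1 row was 1.829 there and 0.356 to 0.494 in the other controls, and the ratio to the shorter row was 2.662 against 0.475 to 0.600. The ratio of Fkbp5 to Fkbp4 was 0.4516, against 0.223 to 0.284. The 3 ratios contain the same Nr3c2 and Fkbp5 values, so the 5 results are not independent of each other.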

How the results depend on the processing

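No member row passed an adjusted p of 0.05 by limma in any of the 20 other settings, and the members' adjusted p ranged down to 0.0685 for Hsp90ab1 and 0.0734 for Fkbp5, both without ELS replicate 2 and control replicate 4. The count over all genes was 0 with all 10 libraries (2988 at an unadjusted p under 0.05, and 3058 by limma-voom). It was 866 with sample quality weights (5.91% of genes tested), 1071 without ELS replicate 2 and control replicate 4 (7.44%), and 0 to 440 when 1 library was left out, with 440 without ELS replicate 2 and 1 without ELS replicate 5. The cause was not tested. Leaving out 1 library moved the log2 fold change of Fkbp5 between -0.0188 and 0.24, that of the longer Nr3c1 row between -0.0636 and 0.0106, of the shorter one between -0.26 and -0.06, of Nr3c2 between -0.65 and -0.06, of Hsd11b1 between -0.18 and -0.02, of Hsp90ab1 between 0.07 and 0.11, of Fkbp4 and of Ptges3 between 0.02 and 0.09, of Bag1 between -0.18 and -0.03, of Ttc4 between -0.0657 and 0.00597, of Mdm2 between -0.0874 and -0.00115 and of Pgr between -0.0616 and 0.33. It moved the log2 ratio of Fkbp5 to Fkbp4 between -0.10 and 0.15, of Nr3c2 to the shorter Nr3c1 row between -0.45 and 0.17, and to the longer row between -0.59 and -0.00101. Without ELS replicate 2 and control replicate 4 these 3 ratios were 0.172, 0.257 and 0.0536, and the log2 fold changes were 0.292 for Fkbp5, -0.0843 for the longer Nr3c1 row, -0.102 for Pgr and 0.0340 for Mdm2. With quality weights Pgr was at -0.00819 and Mdm2 at 0.0374. Under other settings 719 values kept their direction and side of the threshold, 18 changed sign and 16 values of single genes outside the members passed the threshold. Among these, Dctn1 passed in 3 settings, and Cebpd, Cyp7b1, Dnajb1 and Zbtb16 in 2 each. Dync1h1, Smarca2, Trap1 and Ywhaz passed in 1 each. Same-numbered libraries did not deviate together (r of -0.0817 to 0.0658 over 14642 genes). This cannot settle whether the numbers pair the libraries, since a pairing with little effect on expression would look the same. With the replicate block 0 genes passed (2505 unadjusted), Fkbp5 had an adjusted p of 0.896 and Nr3c2 one of 0.462, and the ratios had an adjusted p of 0.938 (exact sign-flip test). The 5 libraries a group, and 168 to 322 reads for the shorter Nr3c1 row, limit the precision.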

Other observations

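Microglia marker sums were 88.3 to 105.9 RPKM in ELS and 100.5 to 119.6 RPKM in control, with 8 of 8 tested markers lower in ELS by the sign of their log2 fold change. Blood marker sums were 213.8 to 438.0 RPKM in ELS and 411.5 to 981.0 RPKM in control, with 4 of 4 lower. Endothelial sums overlapped, at 53.9 to 67.8 RPKM in ELS and 51.6 to 63.7 RPKM in control. Striatal neuron markers summed to 97.9 to 110.1 RPKM in ELS and 49.1 to 201.2 RPKM in control, with the low end in control replicate 4 and the high end in control replicate 1. Choroid plexus markers, a list chosen after values had been seen, summed to 1.80 to 3.71 RPKM in ELS, to 2.18 to 4.99 RPKM in the other controls and to 31.5 RPKM in control replicate 4, where Ttr alone was at 31.1 RPKM. The other choroid markers in the table, Aqp1 and Kcnj13, were lower in control replicate 4 than in all other 9 libraries, at 0.201 RPKM against 0.875 to 3.37 RPKM and at 0.107 RPKM against 0.317 to 1.48 RPKM. None of these values was set against the members by a test.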
